A study of Mus musculus with 8 samples.

Results

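The genes described here are 10 genes commonly used to mark neutrophils, out of 48709 genes in a count table of 8 mouse lung tumors. They are *S100a8*, *S100a9*, *Mmp8*, *Mmp9*, *Retnlg*, *Ly6g*, *Csf3r*, *Cxcr2*, *Clec4d* and *Il1b*. Members were found by matching each symbol to the Ensembl identifier of its row through the GENCODE M21 mouse annotation. All 10 symbols had a row.

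The tumors came from 2 groups of 4, *K-Ctrl* and *K-Setd2KO*. All arose in mice of mixed strain (B6J/129S4vJae) in which Cre starts lung tumors, after a lentiviral vector with Cre, Cas9 and a guide RNA was delivered into the airway. The guide RNA was directed against GFP in *K-Ctrl* and against *Setd2* in *K-Setd2KO*. The *Setd2* product places the trimethyl mark on lysine 36 of histone H3. Cre and Cas9 act only in transduced cells and their progeny, so leukocytes that were not transduced keep the genotype of the host. Cutting by Cas9 need not be complete or alike in each tumor. The ages at which these tumors were taken, and whether each came from a separate mouse, are not given in the sources used here, so p-values measure the spread between these tumors. The labels describe adenocarcinoma, the study calls the *K-Setd2KO* tumors low-grade adenomas, and one text of the labels speaks of cell lines although the design describes frozen tumors.

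Neutrophils are short-lived granulocytes that mature in the bone marrow, carry their granule proteins into the blood and enter tissue along chemokine gradients. Growth factor signals through the G-CSF receptor sustain their production, CXC chemokines bind CXCR2 to draw them out of the blood, and pathogens or tissue damage trigger release of granule enzymes, reactive oxygen and interleukin 1. In lung tumors they form one of several myeloid populations beside alveolar and tumor-associated macrophages, with which they share many receptors.

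Total counts ranged from 5806599 to 21290402 per tumor, and a gene with 3 counts stood at 0.141 to 0.517 CPM, where CPM is the count divided by the TMM-scaled size of its library. *Setd2* mRNA itself, which a small Cas9 lesion need not lower, had a log2 fold change of −0.05 ± 0.115 (SE; edgeR adjusted p = 0.824). Expression of *Xist* and Y-linked genes split the tumors by sex, with 1 female among the *K-Ctrl* tumors and 3 females among the *K-Setd2KO* tumors. No libraries of a group agreed within sampling noise.

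The label of the list was first read beside neutrophil markers in and outside it. *Ly6g*, the surface protein by which mouse neutrophils are usually sorted, had 1 count in *K-Ctrl* replicate 2, 1 count in *K-Setd2KO* replicate 3 and 0 counts in the other 6 tumors. *Elane*, *Ctsg* and *Bpi*, which encode granule proteins made by immature marrow cells, were at 0 counts in all 8 tumors. *Mpo*, the myeloperoxidase of the same granules, had 4 counts in *K-Setd2KO* replicate 3 and 0 elsewhere. As genes of immature marrow cells, these cannot show whether mature neutrophils were present. The calprotectin genes *S100a8* and *S100a9*, among the most abundant mRNAs of neutrophils, had 8 to 106 counts per tumor. Together the 10 genes took 0.00197% to 0.00663% of counts, with 274 to 1001 counts per tumor. The genes are therefore called by their symbols, and no number of neutrophils is read from them, because in bulk tissue fewer cells of a type and less RNA per cell cannot be told apart.

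Promoter sequence is shown for the genes on which the results turn, *Mmp8*, *Cxcr2*, *S100a8* and *S100a9*. Each stretch is from RefSeq on GRCm38.p6, runs 5′ to 3′ on the strand of the gene, starts 250 bases before the RefSeq start of the gene and stops before the first annotated exon. Capitals mark matches on either strand to TTNNGCAA, the letters searched for the C/EBP factors of granulocyte development, and to GAGGAA (read on the other strand as TTCCTC), the letters searched for PU.1, the myeloid factor encoded by *Spi1*. The stretches are chr9:7558179-7558428 on the plus strand for *Mmp8*, chr1:74153744-74153988 on the plus strand for *Cxcr2*, chr3:90668821-90668977 on the plus strand for *S100a8* and chr3:90695722-90695971 on the minus strand for *S100a9*.
Mmp8: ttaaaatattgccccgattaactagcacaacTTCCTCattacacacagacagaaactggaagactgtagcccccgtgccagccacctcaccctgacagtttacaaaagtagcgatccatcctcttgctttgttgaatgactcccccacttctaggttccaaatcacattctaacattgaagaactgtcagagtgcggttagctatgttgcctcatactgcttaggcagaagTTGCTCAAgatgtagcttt
Cxcr2: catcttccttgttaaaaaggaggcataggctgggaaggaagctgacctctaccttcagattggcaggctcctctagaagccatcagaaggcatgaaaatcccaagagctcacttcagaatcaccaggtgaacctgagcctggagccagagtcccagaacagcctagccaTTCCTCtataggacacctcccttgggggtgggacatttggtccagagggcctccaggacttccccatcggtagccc
S100a8: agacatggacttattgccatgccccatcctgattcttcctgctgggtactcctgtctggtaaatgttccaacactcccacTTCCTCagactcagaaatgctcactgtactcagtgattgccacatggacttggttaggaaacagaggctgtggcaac
S100a9: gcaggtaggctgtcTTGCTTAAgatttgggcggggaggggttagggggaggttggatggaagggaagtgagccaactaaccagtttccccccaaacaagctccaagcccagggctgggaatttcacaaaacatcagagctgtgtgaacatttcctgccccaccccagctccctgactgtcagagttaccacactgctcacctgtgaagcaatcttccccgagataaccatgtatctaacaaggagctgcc

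The *Mmp8* stretch held both letter patterns, those of *Cxcr2* and *S100a8* held the PU.1 letters and that of *S100a9* held the C/EBP letters. Of the 9 members with a promoter entry (*Mmp9* had none), 4 held the C/EBP letters and 6 the PU.1 letters within 250 bases before the start. Over all 32851 promoters of that length, the shares were 9.6% and 23.3%. The matches describe letters and were not examined for binding.

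Across the genotypes the 10 genes did not move as one group. Of the 9 that passed the filter on low counts (all but *Ly6g*), 5 had lower and 4 had higher fitted values in *K-Setd2KO*, beside 47.3% of all 14929 tested genes that were lower. Log2 fold changes of the members ran from −2.05 to 2.10 around a median of −0.61, and the median of all tested genes was 0.03. *Mmp8* fell, and no member rose past an adjusted p of 0.05 in edgeR's quasi-likelihood test. That is 1 of 9 members called, beside 12.7% of all genes tested (4.97% higher and 7.74% lower). Without adjustment, 3 members had p under 0.05 (*Mmp8*, *Clec4d* and *Cxcr2*), beside 29.9% of all genes. CPM values of the groups did not overlap for 1 member, *Mmp8*, beside 20.3% of all genes.

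**Figure D1:**
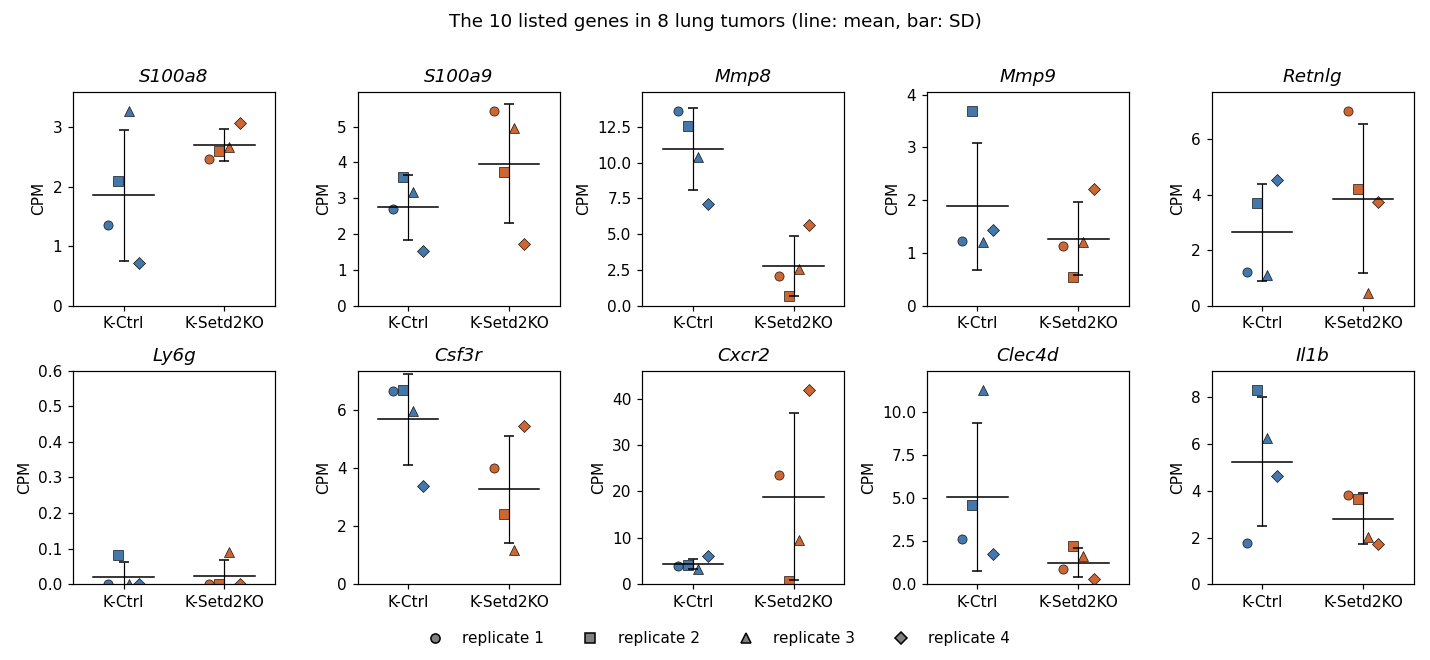
Level of each of the 10 listed genes in CPM (vertical axes, each with its own scale) in the 4 *K-Ctrl* (blue) and 4 *K-Setd2KO* (orange) tumors. Symbols mark the replicate, lines the mean and bars the SD. *Mmp8* is the one gene whose groups do not overlap, *Cxcr2* spreads from 0.840 to 41.8 CPM among the *K-Setd2KO* tumors, and *Ly6g* lies at or near 0 throughout.

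Among secreted granule enzymes, *Mmp8* (ENSMUSG00000005800.2, GRCm38 chromosome 9, 7558429 to 7568486, plus strand), the neutrophil collagenase, had 13.6, 12.6, 10.4 and 7.13 CPM in *K-Ctrl* replicates 1 to 4 and 2.10, 0.687, 2.58 and 5.64 CPM in *K-Setd2KO* replicates 1 to 4. Every *K-Ctrl* tumor lay above every *K-Setd2KO* tumor, with replicate 4 the lowest of the first group and the highest of the second. The means were 10.9 ± 2.86 and 2.75 ± 2.08 CPM (SD, n = 4 each), from 80 to 226 and from 9 to 41 counts. The log2 fold change was −2.05 ± 0.527 (SE), with an edgeR adjusted p of 0.0357. With all 70 assignments of tumors to groups, an exact permutation test (two-sided) gave p = 0.0286, the smallest it can give. The difference was −1.78 on the log2 scale among male tumors (3 against 1) and −2.29 among female tumors (1 against 3). The edgeR call was lost without *K-Ctrl* replicate 1, 2 or 3 or *K-Setd2KO* replicate 1 or 3, when adjusted p reached 0.0760 to 0.0879. It was also lost with sex as a term (adjusted p = 0.0696) and with the replicate number as a block (0.0712).

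*Mmp9* (ENSMUSG00000017737.2, chromosome 2, 164940780 to 164955850, plus strand), the gelatinase of tertiary granules, had 1.23, 3.69, 1.20 and 1.43 CPM in *K-Ctrl* and 1.13, 0.534, 1.20 and 2.22 CPM in *K-Setd2KO*. The groups overlapped and a single *K-Ctrl* tumor, replicate 2, was the highest of all. Its log2 fold change was −0.61 ± 0.553 (SE; adjusted p = 0.497), and −0.064 (adjusted p = 0.954) without *K-Ctrl* replicate 2. Of 5 tested genes listed as inhibitors or partners of these proteases, *Timp3*, a tissue inhibitor of metalloproteinases, fell (log2 fold change −1.35, adjusted p = 0.0431). *Lcn2*, whose product binds the MMP9 protein and is also made by lung epithelium, had a log2 fold change of 1.34 (adjusted p = 0.0854).

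The calprotectin pair lies side by side on chromosome 3 and encodes the subunits of one calcium-binding alarmin. *S100a8* (ENSMUSG00000056054.9, 90668978 to 90670035, plus strand) had 1.35, 2.10, 3.27 and 0.713 CPM in *K-Ctrl* and 2.46, 2.60, 2.67 and 3.07 CPM in *K-Setd2KO*. *S100a9* (ENSMUSG00000056071.12, 90692632 to 90695721, minus strand) had 2.70, 3.60, 3.18 and 1.51 CPM in *K-Ctrl* and 5.43, 3.74, 4.97 and 1.71 CPM in *K-Setd2KO*. For *S100a8* the *K-Setd2KO* values lay within those of *K-Ctrl*, and for *S100a9* 3 of the *K-Setd2KO* tumors lay above all *K-Ctrl* tumors and 1 did not. The log2 fold changes were 0.51 ± 0.449 and 0.54 ± 0.413 (SE), with adjusted p of 0.478 and 0.415. With 1 tumor left out, *S100a8* ran from 0.257 (without *K-Ctrl* replicate 4) to 0.946 (without *K-Ctrl* replicate 3). *S100a9* ran from 0.347 (without *K-Ctrl* replicate 4) to 0.767 (without *K-Setd2KO* replicate 4). Among male tumors the log2 differences were 0.64 for *S100a8* and 0.93 for *S100a9*, and among female tumors 0.30 and −0.10, so that the sign for *S100a9* differed between the sexes. The pair correlated with Pearson r = 0.491 over the 8 tumors on log2 CPM, a description of few low counts from shared libraries.

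Of 6 genes listed as receptors for calprotectin or its partners, *Bsg* (basigin) rose (log2 fold change 0.79, adjusted p = 0.0108) and *Cd33*, a myeloid lectin, fell (−1.86, adjusted p = 0.00643). Both had groups that did not overlap. Both are also expressed outside neutrophils, *Bsg* in most cell types.

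*Retnlg* (ENSMUSG00000022651.5, chromosome 16, 48872608 to 48874498, plus strand), a small secreted protein of mature neutrophils, had 1.23, 3.69, 1.11 and 4.54 CPM in *K-Ctrl* and 7.02, 4.20, 0.460 and 3.76 CPM in *K-Setd2KO*. Its highest and its lowest value were both in *K-Setd2KO*. On the log2 scale the fold change was 0.58 ± 0.729 (SE; adjusted p = 0.636) and its sign turned when sex was added as a term (−0.69). With 1 tumor left out it ran from 0.096 (without *K-Setd2KO* replicate 1) to 0.976 (without *K-Ctrl* replicate 4). The log2 difference was −1.33 among male and 0.34 among female tumors. Apart from *S100a9* and *Retnlg*, the tested members had the same sign in both sexes. *Ly6g* (ENSMUSG00000022582.4, chromosome 15, 75155240 to 75159126, plus strand) stood at or below 0.0921 CPM everywhere, under the level of 3 counts in every tumor, and no fold is given.

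The receptors among the members differed from each other. *Csf3r* (ENSMUSG00000028859.14, chromosome 4, 126024550 to 126044440, plus strand), the receptor for G-CSF, had 6.68, 6.71, 5.99 and 3.38 CPM in *K-Ctrl* and 4.00, 2.44, 1.20 and 5.46 CPM in *K-Setd2KO*. The groups overlapped through *K-Ctrl* replicate 4 and *K-Setd2KO* replicates 1 and 4. *Csf3r* had a log2 fold change of −0.82 ± 0.450 (SE; adjusted p = 0.257). The mRNA of its ligand, *Csf3*, was at or under 0.368 CPM in every tumor.

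*Clec4d* (ENSMUSG00000030144.4, chromosome 6, 123262111 to 123275265, plus strand), a C-type lectin that monocytes and macrophages also express, had 2.64, 4.61, 11.3 and 1.78 CPM in *K-Ctrl* and 0.872, 2.21, 1.66 and 0.342 CPM in *K-Setd2KO*. Only *K-Ctrl* replicate 4 lay below the highest *K-Setd2KO* tumor. *Clec4d* had a log2 fold change of −1.96 ± 0.680 (SE), with an edgeR adjusted p of 0.0886 and an exact permutation p of 0.0571 (two-sided). DESeq2 gave an adjusted p of 0.0247. Without *K-Ctrl* replicate 3, the tumor with the highest value, the log2 fold change was −1.21 (adjusted p = 0.273).

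*Cxcr2* (ENSMUSG00000026180.8, chromosome 1, 74153989 to 74161246, plus strand), the chemokine receptor for neutrophil recruitment, had 3.86, 4.19, 3.41 and 6.06 CPM in *K-Ctrl* and 23.5, 0.840, 9.48 and 41.8 CPM in *K-Setd2KO*. In *K-Setd2KO*, 3 tumors lay above every *K-Ctrl* tumor and replicate 2 lay below every one of them, from 458, 103 and 245 counts against 11. The means were 4.38 ± 1.16 and 18.9 ± 17.9 CPM (SD, n = 4 each). The log2 fold change was 2.10 ± 0.847 (SE), with an edgeR adjusted p of 0.136 and an exact permutation p of 0.371 (two-sided). Without *K-Setd2KO* replicate 2 it was 2.5 ± 0.458 (SE; edgeR adjusted p = 0.0158), and DESeq2 over all 8 tumors gave an adjusted p of 0.0297. Without *K-Setd2KO* replicate 4 the log2 fold change was 1.37 (adjusted p = 0.304), with limma voom 1.06 (adjusted p = 0.561) and with the replicate number as a block 1.46 (adjusted p = 0.333). The difference was 1.05 on the log2 scale among male and 1.24 among female tumors.

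*Il1b* (ENSMUSG00000027398.13, chromosome 2, 129364570 to 129371139, minus strand), the cytokine interleukin 1 beta, had 1.78, 8.30, 6.26 and 4.63 CPM in *K-Ctrl* and 3.79, 3.67, 2.03 and 1.71 CPM in *K-Setd2KO*. The groups overlapped because *K-Ctrl* replicate 1 lay between the lowest *K-Setd2KO* tumors. *Il1b* had a log2 fold change of −0.88 ± 0.479 (SE; adjusted p = 0.253). The antisense gene *Il1bos* overlaps it, and whether counting used the read strand is not given in the sources used here. Of 10 tested genes of the interleukin 1 pathway, *Il1rn*, the receptor antagonist, fell (log2 fold change −1.47, adjusted p = 0.0174) and none rose. *Il1r1*, the signaling receptor, had a log2 fold change of 0.61 (adjusted p = 0.101).

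Levels per kilobase of exon allow the members to be ranked. On the scale of mean CPM per kb, the order in *K-Ctrl* was *S100a9* (5.27), *Mmp8* (4.46), *Retnlg* (4.34), *Clec4d* (3.18), *Il1b* (2.75), *S100a8* (2.68), *Csf3r* (1.58), *Cxcr2* (1.44), *Mmp9* (0.532) and *Ly6g* (0.0222). In *K-Setd2KO* the order was *S100a9* (7.59), *Retnlg* (6.35), *Cxcr2* (6.21), *S100a8* (3.89), *Il1b* (1.47), *Mmp8* (1.12), *Csf3r* (0.908), *Clec4d* (0.795), *Mmp9* (0.359) and *Ly6g* (0.0244). *Mmp8* moved from the second place to the sixth and *Cxcr2* from the eighth to the third. Neighbors in these orders differed by less than the larger of their SDs, except at the steps from *Cxcr2* to *Mmp9* and from *Mmp9* to *Ly6g* in *K-Ctrl*, and from *S100a8* to *Il1b* and from *Mmp9* to *Ly6g* in *K-Setd2KO*. The SD was 5.88 CPM per kb for *Cxcr2* and 0.380 for *S100a8* in *K-Setd2KO*.

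The summed CPM of the 10 genes was alike in mean, at 40.5 ± 8.75 for *K-Ctrl* and 40.8 ± 21.0 for *K-Setd2KO* (SD, 4 tumors each). *Cxcr2* made up 7.39% to 19.4% of that sum in *K-Ctrl*, and 46.7%, 4.02%, 36.0% and 63.6% in *K-Setd2KO* replicates 1 to 4. Without *Cxcr2*, a division made after its values were seen, the sums were 36.1 ± 9.55 and 21.9 ± 4.36 CPM. Over the 36 pairs of tested members, Pearson r across the 8 tumors had a median of 0.0885 and was positive in 22 pairs. It ranged from −0.685 for *Cxcr2* with *Clec4d* to 0.731 for *Csf3r* with *Mmp8*. These values are descriptions, since all pairs share the same 8 libraries and many rest on fewer than 100 counts.

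To describe the members beside other leukocyte genes, each was set against 12 pan-leukocyte genes. The members had been chosen with this contrast already seen in these data, so p-values on this scale are descriptions. Of those 12, 11 fell in *K-Setd2KO* (median log2 fold change −1.75), among them *Ptprc*, which encodes CD45 (−2.08, adjusted p = 0.00560), and *Laptm5* (−1.80, adjusted p = 0.00506). The exception was *Lcp1* (−0.61, adjusted p = 0.130). Their summed CPM was 1388 to 2639 in *K-Ctrl* and 750.1 to 922.7 in *K-Setd2KO*. A second edgeR fit then used the summed pan-leukocyte counts of each tumor as its library size. *Lcp1* made up 30.05% to 39.81% of those counts in *K-Ctrl* and 46.5% to 65.74% in *K-Setd2KO*, and the mean summed CPM differed by −1.32 on the log2 scale, less than the median gene of the list. On this scale the pan-leukocyte genes themselves had a median of −0.42 and ran from −0.81 (*Cytip*) to 0.68 (*Lcp1*).

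Relative to pan-leukocyte counts, 3 of 9 members were higher in *K-Setd2KO* and none lower. On this scale 72.8% of all genes tested were called, 71.4% higher and 1.35% lower, so the share of members lay below the background. *S100a8* was higher by 1.93 ± 0.528 on the log2 scale (SE; adjusted p = 0.00244), *S100a9* by 1.88 ± 0.493 (adjusted p = 0.00174) and *Cxcr2* by 3.18 ± 1.04 (adjusted p = 0.0285). *S100a8* and *S100a9* were called without each tumor in turn, in fits that called 62.5% to 72.5% of all genes tested higher. *Cxcr2* lost the call without *K-Ctrl* replicate 1, 2 or 3 or *K-Setd2KO* replicate 1 or 4. *Retnlg* was called higher as well without *K-Ctrl* replicate 4 or *K-Setd2KO* replicate 2 or 3.

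Counted per 1000 pan-leukocyte counts, *S100a8* and *S100a9* together had 1.61 to 2.44 in *K-Ctrl* and 5.25 to 9.97 in *K-Setd2KO*. These ranges did not overlap, as was true of 62.9% of all genes tested on this scale. *Mmp8* had 3.95 to 7.79 and 0.916 to 6.18, which overlapped, and its relative log2 fold change was −0.81 (adjusted p = 0.139), called lower without *K-Setd2KO* replicate 4. *Clec4d* had a relative log2 fold change of −0.45 (adjusted p = 0.493), *Csf3r* of 0.44 (adjusted p = 0.418) and *Il1b* of 0.46 (adjusted p = 0.404). *Mmp9* stood at 0.69 (adjusted p = 0.312) and *Retnlg* at 1.68 (adjusted p = 0.0511). The median of the members was 0.69, and *Mmp8*, *Clec4d*, *Csf3r* and *Il1b* lay within the range of the pan-leukocyte genes, with *Mmp9* at its upper edge. With *Lcp1* left out of the denominator, a choice made after seeing the data, 5 members were called higher (*S100a8*, *S100a9*, *Cxcr2*, *Retnlg* and *Csf3r*), beside 82% of all genes tested. *Mmp8* then stood at −0.11 (adjusted p = 0.848) and *Clec4d* at 0.02 (adjusted p = 0.972).

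**Figure D2:**
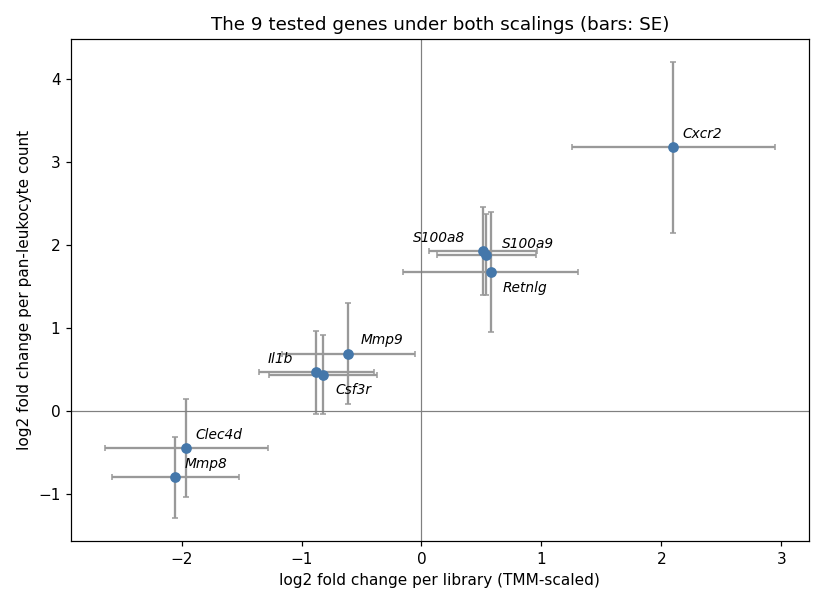
Log2 fold change of *K-Setd2KO* over *K-Ctrl* for the 9 tested genes of the list, per TMM-scaled library (horizontal) and per pan-leukocyte count (vertical), with SE bars. *Mmp8* and *Clec4d* are below 0 on both axes (without *Lcp1* in the denominator *Clec4d* is above 0), *S100a8*, *S100a9*, *Retnlg* and *Cxcr2* are above 0 on both, and *Csf3r*, *Il1b* and *Mmp9* change sign.

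Other genes known from neutrophils were examined in lists that hold no member. Of 22 listed receptors and adhesion proteins of neutrophils, many of them shared with monocytes and macrophages, 18 were tested, 10 fell and none rose (median log2 fold change −1.78). *Cxcr1*, the companion receptor of CXCR2, had 14.2, 15.4, 37.5 and 14.1 CPM in *K-Ctrl* and 2.36, 5.12, 1.38 and 1.03 CPM in *K-Setd2KO*. It was lower in every *K-Setd2KO* tumor, including those in which *Cxcr2* was high, with a log2 fold change of −2.99 ± 0.543 (SE; adjusted p = 0.0124). The formyl peptide receptors *Fpr1* and *Fpr2*, which sense bacterial peptides, fell by 2.17 (adjusted p = 0.0486) and by 2.55 (adjusted p = 0.0326) on the log2 scale.

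The integrin chain *Itgb2*, also one of the pan-leukocyte genes, fell by 2.03 (adjusted p = 0.00560), and the selectin ligand *Selplg* fell by 1.73 (adjusted p = 0.00643). The complement receptor *C5ar1* fell by 1.92 (adjusted p = 0.0209), the Fc receptor *Fcgr4* by 1.97 (adjusted p = 0.0147) and the cytokine receptor chain *Csf2rb* by 1.69 (adjusted p = 0.00895). The remaining called receptors were the lectin *Clec5a*, which fell by 1.38 (adjusted p = 0.0329), and the membrane protease *Mmp25*, which fell by 3.04 (adjusted p = 0.0466). *Mmp25* was at 0 to 0.382 CPM in *K-Setd2KO*, so its fold rests on a few counts.

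*Cd177*, a neutrophil surface glycoprotein, was the one tested receptor gene with a positive fold change (3.96 ± 1.66, SE; adjusted p = 0.149). It had 0.858, 128, 9.49 and 36.2 CPM in *K-Ctrl* and 759, 4.12, 202 and 1732 CPM in *K-Setd2KO*. Like *Cxcr2*, it was above every *K-Ctrl* tumor in *K-Setd2KO* replicates 1, 3 and 4 and low in replicate 2. Its Pearson r with *Cxcr2* over the 8 tumors was 0.857 on log2 CPM, the highest among the genes of the lists used here and chosen after the values were seen. On the same scale *Cxcr2* had r of 0.763 with *Padi4*, 0.695 with the epithelial gene *Cldn4* and −0.559 with *Spi1*. In *K-Setd2KO* replicates 1 and 4, *S100a9* had 5.43 and 1.71 CPM and *Ly6g* had 0 counts. Which cells held the *Cd177* and *Cxcr2* mRNA was not tested.

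**Figure D3:**
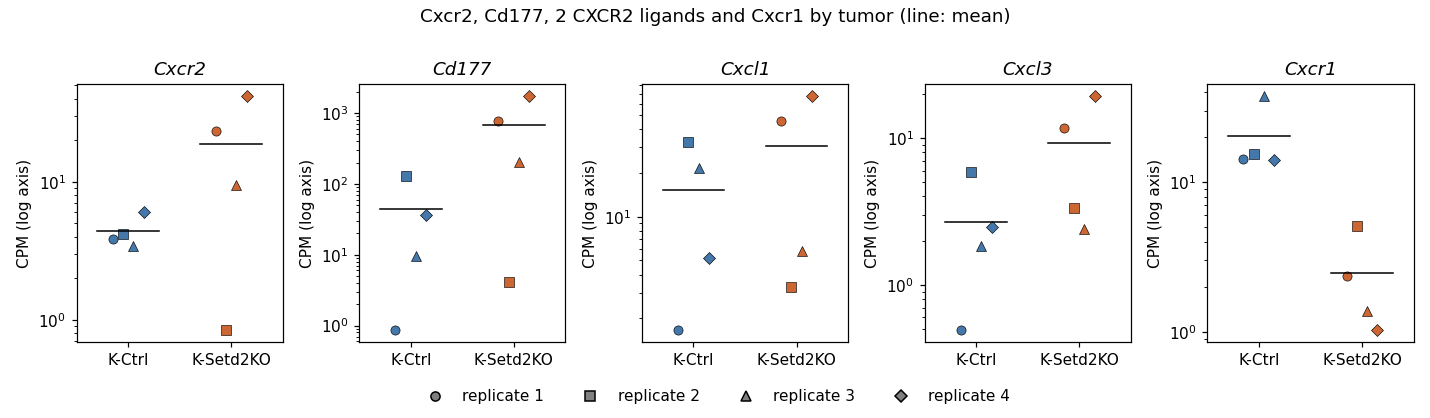
*Cxcr2*, *Cd177*, the CXCR2 ligands *Cxcl1* and *Cxcl3*, and *Cxcr1* in CPM on log axes, with symbols for replicates and lines for group means. *Cxcr2* and *Cd177* are highest in *K-Setd2KO* replicates 4, 1 and 3 and low in replicate 2, whereas *Cxcr1* is lower in all 4 *K-Setd2KO* tumors.

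Of 7 tested ligands of CXCR2, *Mif*, a cytokine of many cell types, rose (log2 fold change 0.70 ± 0.131, SE; adjusted p = 0.0131) and none fell. *Ppbp*, the platelet chemokine, had a log2 fold change of −2.52 (adjusted p = 0.143). *Cxcl1* had 1.66, 32.7, 21.6 and 5.17 CPM in *K-Ctrl* and 45.7, 3.28, 5.80 and 67.5 CPM in *K-Setd2KO*. *Cxcl3* had 0.490, 5.87, 1.84 and 2.49 CPM in *K-Ctrl* and 11.7, 3.36, 2.39 and 19.3 CPM in *K-Setd2KO*. Both ligands, named after their values were seen, were highest in *K-Setd2KO* replicates 1 and 4, the tumors with the most *Cxcr2*. *Cxcl5* was also highest in these tumors (3.435 and 3.586 CPM), with 3.185 CPM in *K-Ctrl* replicate 2. *Cxcl2* and *Cxcl15* did not follow *Cxcr2*. *Cxcl2* was highest in *K-Ctrl* replicates 3 and 2 (4.33 and 4.02 CPM) and *Cxcl15*, the ligand with the most counts, in *K-Ctrl* replicate 2 (10390 CPM). None of these CXC ligands passed the threshold between the genotypes (edgeR adjusted p = 0.574 for *Cxcl1*, 0.184 for *Cxcl3*, 0.446 for *Cxcl5*, 0.287 for *Cxcl2* and 0.687 for *Cxcl15*).

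Of 14 listed granule proteins only 6 were tested, and none was called (2 had an unadjusted p under 0.05). Their median log2 fold change was 0.79. *Chil1*, a chitinase-like protein that lung epithelium also makes, had 94.5 to 1290 CPM in *K-Ctrl* and 1479 to 6521 CPM in *K-Setd2KO*, with a log2 fold change of 2.24 ± 0.751 (SE; adjusted p = 0.0821). *Ltf*, lactoferrin, had a log2 fold change of −1.09 (adjusted p = 0.548). *Chil1* and *Lcn2* thus reached at least 94.5 CPM in every tumor, whereas *S100a9* reached at most 5.43 CPM.

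Of 11 tested genes of mature neutrophils, 5 fell and none rose (median log2 fold change −1.47). They were *Hcar2*, the niacin receptor, which fell by 1.67 (adjusted p = 0.0148), *Il1rn*, *Ccrl2*, a chemerin-binding receptor, which fell by 1.80 (adjusted p = 0.0311), *G0s2*, a lipase inhibitor, which fell by 1.73 (adjusted p = 0.0324), and *Wfdc21*, which fell by 1.75 (adjusted p = 0.0405). *Lrg1*, a secreted glycoprotein, had a log2 fold change of 1.00 (adjusted p = 0.0935). Of 11 genes of the oxidase and of lipid mediator synthesis, 7 fell, with the smallest p for *Ncf1*, a cytosolic oxidase subunit (−1.68, adjusted p = 0.00929), and *Padi4*, which modifies histones in neutrophils, had 0.305 to 1.54 CPM and a log2 fold change of 0.25 (adjusted p = 0.814).

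Among 7 tested regulators of granulopoiesis, *Cebpa*, the C/EBP factor of early granulocytes and also of alveolar type 2 cells, rose by 0.89 ± 0.144 (SE; adjusted p = 0.00834). *Spi1*, encoding PU.1, fell by 1.77 (adjusted p = 0.0102). In both, the groups did not overlap. *Cebpa* stood at 264 to 384 CPM in *K-Ctrl*, *Spi1* at 18.4 to 46.2 CPM, and the alveolar type 2 genes together reached 45260 to 76870 CPM per tumor.

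Markers of other leukocytes moved beside these genes. Of the macrophage list 6 of 12 fell (median −1.63), with the smallest p for *Mrc1* (−2.22, adjusted p = 0.00560), with summed CPM of 572 to 1668 in *K-Ctrl* and 197.8 to 376.3 in *K-Setd2KO*. Of 9 tested monocyte genes *Ly6c2* rose (1.81, adjusted p = 0.0454), none fell, and the summed CPM was 602.8 to 1128 and 337.6 to 564.8. Those sums were mostly *Fn1* (mean 362 CPM in *K-Ctrl* and 243 in *K-Setd2KO*) and *Ace* (342 and 129 CPM). *Ccr2* had means of 27.6 and 10.1 CPM. *Ace*, the angiotensin-converting enzyme, had −1.41 (adjusted p = 0.101). Among dendritic cell genes 4 of 7 fell, with the smallest p for *Itgax* (−1.78, adjusted p = 0.00967), with summed CPM of 144.1 to 303.3 and 47.65 to 82.14. The dendritic cell sums were mostly *Itgax* itself (mean 165 CPM in *K-Ctrl* and 48.2 in *K-Setd2KO*). Which cells *Fn1*, *Ace* and *Itgax* mRNA came from was not tested.

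No T cell gene of 11 was called by edgeR, although 4 had an unadjusted p under 0.05 and the list median was −1.56, and summed CPM was 40.34 to 178.3 and 8.379 to 58.45. *Il7r* was at −1.89 (adjusted p = 0.0965). Of 7 tested B cell genes *Cd22* fell (−2.24, adjusted p = 0.00643), *Cd79b* was at 0.40 (adjusted p = 0.389), and summed CPM was 35.56 to 91.77 and 19.06 to 29.09. The part of macrophages, monocytes and other cells in the level of the shared genes (*Mmp8*, *Clec4d*, *Csf3r*, *Il1b* and the receptor list) was not tested.

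**Figure D4:**
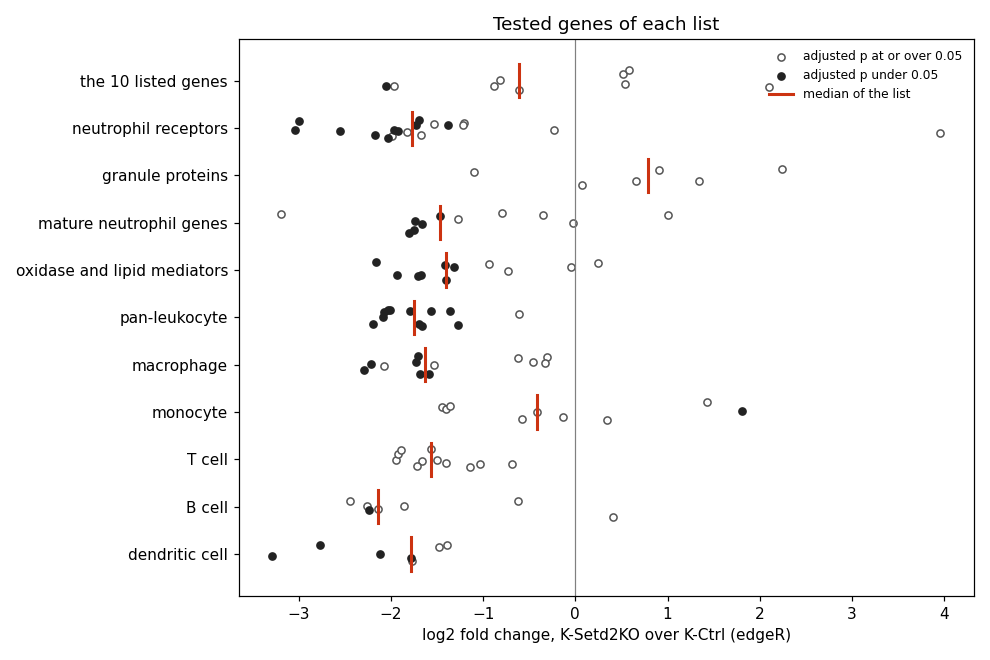
Log2 fold change of *K-Setd2KO* over *K-Ctrl* for each tested gene of 11 lists, 1 point a gene, filled where the adjusted p was under 0.05, with a red line at the median. The 9 tested genes of the list described here spread from −2.05 to 2.10 around a median of −0.61, while pan-leukocyte genes center at −1.75 with 11 of 12 filled.

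Over all genes outside the list, those whose log2 CPM followed the mean centered profile of the 9 tested members most closely were *N4bp1* (Pearson r = 0.975 over 8 tumors), *2610002M06Rik* (0.972), *Sacm1l* (0.964), *Ptafr* (0.963) and *Nuak2* (0.962). *Ptafr* encodes the receptor for platelet-activating factor. With 14929 genes and 8 tumors such values describe likeness alone. The member profile itself was highest in *K-Ctrl* replicate 2 (0.56 on the centered log2 scale) and lowest in *K-Setd2KO* replicate 2 (−0.56).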

How the data were processed

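RNA of 8 tumors (4 *K-Ctrl*, 4 *K-Setd2KO*) was sequenced as paired ends from a stranded poly(A) kit. The authors deposited raw counts, whole numbers per gene with coordinates and exon length. The submitters' processing notes name STAR 2.5.2b, featureCounts 1.5.0-p1 and GRCm38.p4. The annotation release and strand setting are not given in the sources used here. No filter or normalization by the authors was found in the counts, and 20284 genes had 0 counts throughout. GENCODE M21 gave symbols for 48349 of 48709 identifiers (99.26%).

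Counts were fitted in R 4.3.3 with edgeR 4.0.16 (filterByExpr, TMM, robust quasi-likelihood fit, genotype alone), with Benjamini-Hochberg adjustment over 14929 genes. The SE of a log2 fold change is its size over the square root of the F statistic. A second fit replaced library sizes by summed pan-leukocyte counts. CPM per kb used the deposited exon length. Correlations used log2(CPM + 0.5), and exact permutation tests log2(CPM + 0.1). DESeq2 1.42.0 (the study's tool), limma 3.58.1 voom, other filters, other normalizations, sex, a replicate block and leaving out each tumor were alternatives. Scripts were tested on simulated data. The members and lists were chosen with earlier results of these data known. Named genes are the members, *Setd2*, the lowest-p gene in each direction of each list described, called genes of the receptor, granule, mature neutrophil, CXCR2 ligand and interleukin 1 lists, and the 5 genes most like the members' mean profile. Any other named gene was chosen after its values were seen. The allele that Cre acts on in these mice is not reported here.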

Additional observations from a re-analysis of the deposited data

Results flagged for a closer look

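*Mmp9* in *K-Ctrl* replicate 2, at 3.69 CPM from 44 counts, lay far from the other 3 *K-Ctrl* tumors, which had 1.20 to 1.43 CPM from 16 to 26 counts. It stood apart by Dixon's test at the 95% level. Over the 18 groups of member values examined, chance alone gives about 0.9 such values. Without that tumor the *Mmp9* log2 fold change went from −0.61 to −0.064 (edgeR adjusted p = 0.497 and 0.954), so the fitted difference rests on it.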

How the results depend on the processing

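The number of genes called was 1897 of 14929. It was 3194 with DESeq2, 1237 with sex by expression as a term and 763 to 2058 when 1 tumor was left out (763 without *K-Ctrl* replicate 3). Members called numbered 1 (*Mmp8*), against 3 with DESeq2 (*Clec4d*, *Cxcr2* and *Mmp8*), 0 of the 4 tested members with at least 10 counts in every tumor, 0 with sex as a term and 0 to 2 when 1 tumor was left out. The 0 came without *K-Ctrl* replicate 1, 2 or 3 or *K-Setd2KO* replicate 1 or 3, and the 2 (*Cxcr2* and *Mmp8*) without *K-Setd2KO* replicate 2. The members' median log2 fold change of −0.61 became −0.19 with no filter (10 genes), −0.17 with at least 10 counts in every tumor (4 genes) and −0.78 to −0.064 when 1 tumor was left out (−0.064 without *K-Ctrl* replicate 2). Members called relative to pan-leukocyte counts numbered 3, against 7 with *Ptprc* alone as the denominator (84.1% of all genes higher, against 71.4%), 5 with *Lcp1* left out of it (82% of all genes higher, added after seeing the data), 5 with limma voom (4 higher and 1 lower, *Mmp8*; 73.5% of all genes higher) and 2 to 4 when 1 tumor was left out (62.5% to 72.5%). *Retnlg* turned to −0.69 with sex as a term. The causes of these changes were not tested, other than the smaller set of members under the count minimum.

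*Mmp8* stayed below 0 in all 15 alternatives (−2.62 to −1.73, adjusted p 0.00102 to 0.0879) and was called in 8. *Cxcr2* was above 0 in 16 alternatives (1.06 to 2.5) and called in 2. *Clec4d* was below 0 in 15 (−2.36 to −1.21) and called in 2. The replicate numbers did not pair the tumors, since same-numbered tumors had correlations of −0.0869 to 0.358 in their deviations. With the replicate block, 1341 genes and 1 member (*Clec4d*, adjusted p = 0.0459) were called, *Mmp8* had −2.26 (adjusted p = 0.0712), the members' median was −0.50, and 4 members were called relative to pan-leukocyte counts, beside 68.1% of all genes higher. Depth limits the low members most. In *K-Setd2KO* replicate 4, with the fewest reads, *Clec4d* rested on 2 counts and *S100a9* on 10.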

Other observations

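Platelet, erythroid and granulocyte genes other than those of neutrophils were also read. *Pf4*, the platelet chemokine CXCL4, had 2.58, 12.2, 5.16 and 3.30 CPM in *K-Ctrl* and 16.7, 4.73, 31.9 and 122 CPM in *K-Setd2KO* (log2 fold change 2.91, edgeR adjusted p = 0.0737). Of the *K-Setd2KO* tumors, replicates 1, 3 and 4 lay above all *K-Ctrl* tumors and replicate 2 did not. Its Pearson r with *Cxcr2* over the 8 tumors was 0.785, a description on log2 CPM. *Ppbp*, the other platelet chemokine read, had at most 1.54 CPM in *K-Setd2KO*.

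Both tested genes of the mast cell and basophil list fell, among them the stem cell factor receptor *Kit* (−2.28, adjusted p = 0.0157). The 2 tested eosinophil genes were not called, and *Prg2*, the granule major basic protein, had a log2 fold change of −1.50 (adjusted p = 0.276). The 5 tested erythroid genes were lower with unadjusted p under 0.05, and none was called by edgeR (*Alas2*, heme synthesis, −2.04, adjusted p = 0.0590). None of the 8 NK cell genes passed the filter on low counts.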
